A study of Mus musculus with 4 samples.

Results

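The 10 genes described here encode RNA-binding proteins that set how long cytokine mRNAs last. They were chosen by name, from their known roles in destabilising or stabilising such mRNAs, and all 10 were present among the 55401 gene models of the deposited tables. Of the 10, 5 reached a mean of at least 1 FPKM (fragments per kilobase of transcript, scaled to the library's mapped fragments) and were among the 9215 genes tested. The cells were group 2 innate lymphoid cells (ILC2s) of lungs from C57BL/6 mice, lymphocytes without antigen receptors that secrete type 2 cytokines. They were stimulated for 6 h with IL-33 plus angiotensin II (Ang II) or with IL-33 alone, with 2 libraries per group and 500 cells per library. Both groups received IL-33, an epithelial alarmin, and no unstimulated group was analysed here. The series title names the Ang II receptor AT1a, and the comparison asks how Ang II bears on the IL-33 response. The labels do not say whether the libraries came from separate mice.

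Most cytokine mRNAs carry signals for rapid decay in the 3′ untranslated region (3′ UTR). AU-rich elements there are bound by the zinc finger proteins ZFP36 (tristetraprolin), ZFP36L1 and ZFP36L2, which bring in the CCR4-NOT complex to remove the poly(A) tail. Stem-loops are bound by Roquin-1 and Roquin-2 (Rc3h1, Rc3h2) and cut by the endonuclease Regnase-1 (Zc3h12a). HuR (Elavl1) binds AU-rich mRNAs and stabilises them, whereas KSRP (Khsrp) and AUF1 (Hnrnpd) mostly hasten their decay. In ILC2s, loss of the Regnase-1 protein is known to accompany activation by IL-33.

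The element itself is shown here because it links the factors to their targets and to each other. The letters searched were TTATTTATT (UUAUUUAUU in the mRNA), the preferred ZFP36 nonamer, on the transcribed strand of 1 GENCODE M21 transcript per gene, and a match is not evidence of binding. It occurred in the 3′ UTR of 6.29% of 7092 tested genes with an annotated 3′ UTR. All 3 ZFP36 paralogues carried 1 match in their own 3′ UTR, and Rc3h1 and Rc3h2 carried 1 each. Elavl1 carried 8, most of them overlapping, which began 3793 to 3839 bases after the stop codon. These 3′ UTRs had 774 bases for Zfp36, 1835 for Zfp36l1, 1822 for Zfp36l2, 4218 for Elavl1, 7181 for Rc3h1 and 5160 for Rc3h2. The median over the 7092 genes was 882 bases, and the 6.29% is not matched for length. Zc3h12a, Zc3h12d, Khsrp and Hnrnpd carried 0. Tnf had 5 matches and Csf2 had 4, overlapping each other, and Il13 had 1. Capitals mark the nonamer in these windows of 29 bases of mm10, each on the minus strand.
Zfp36, chr7:28376951-28376979: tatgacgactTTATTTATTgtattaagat
Zfp36l1, chr12:80108167-80108195: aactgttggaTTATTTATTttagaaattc
Zfp36l2, chr17:84184914-84184942: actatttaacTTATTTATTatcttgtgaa
Elavl1, first match, chr8:4285788-4285816: gtcatgaaaaTTATTTATTtatttattta
Tnf, first match, chr17:35199689-35199717: tttgcacttaTTATTTATTatttatttat
Csf2, first match, chr11:54247329-54247357: ttttaaatatTTATTTATTtatttattta
Il13, chr11:53631741-53631769: cttcttgatcTTATTTATTatggttgtgt

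The libraries of each group were compared before the groups were. The FPKM sums of the libraries lay between 394808 and 431014, and the number of fragments behind each value is unknown. Between the Ang II libraries log2(FPKM + 1) correlated at Pearson r = 0.568 over 9215 genes, and between the IL-33 libraries at r = 0.994. Genes are not independent replicates. At 5 FPKM or more on average in the group, 56.7% of 5508 differed by over 2-fold between the Ang II libraries and 0.937% of 5335 between the IL-33 libraries. At a depth estimated from how often a weakly detected gene was listed at 0 in only 1 IL-33 library, the spread of better detected genes was 13.0 times the counting noise for the Ang II pair and 1.02 times for the IL-33 pair. Since the true depth is unknown and the estimate comes from the IL-33 pair itself, this is no independent check of that pair. The IL-33 libraries were counted as 1 sample in the test, with their mean as its value. The reason was that their median spread over genes did not exceed this estimate of counting noise. A median does not show this for each gene. The calls over all genes depend on that choice: limma called 0 genes with it, against 457 higher and 1090 lower, with 0 members among them, when both IL-33 libraries entered as replicates. Zfp36l1 was among the 50 genes over 2-fold apart in the IL-33 pair, and Hnrnpd stood 1.94-fold apart there. The IL-33 mean leaves that spread out of the test of both genes.

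Markers of other cell types differed with the groups. Genes counted here as higher or lower had both Ang II libraries above or below both IL-33 libraries. Of the 18255 gene models above 0 in any library, 17.1% were higher and 24.4% lower. Summed over 12 ILC2 markers the level was 2454 and 2047 FPKM with Ang II against 2306 and 2323 FPKM with IL-33 alone, with 3 genes higher, 0 lower, and Thy1 at 0.09 FPKM or less throughout. The 12 T cell markers summed to 966 and 469 FPKM with Ang II and to 1331 FPKM in both IL-33 libraries, Trbc2 and Trbc1 being the most abundant. Of these 10 were lower and 1 higher, Cd8b1, which was at 0.08 FPKM or less throughout. The 6 red blood cell markers summed to 3832 and 1592 FPKM with Ang II against 25146 and 24944 FPKM with IL-33 alone, mostly Hba-a2 and Hba-a1, with 5 lower. The 10 myeloid markers summed to 2035 and 935 FPKM with Ang II against 2238 and 2203 FPKM with IL-33 alone, led by Lyz2 and Chil3, with 4 lower and Itgax listed at 0. The 1 higher was Marco, an alveolar macrophage marker, at 191 and 23.2 FPKM with Ang II and listed at 0 with IL-33 alone. The 8 epithelial markers summed to 80.1 and 189 FPKM with Ang II against 366 and 356 FPKM with IL-33 alone, led by Scgb1a1 and Sftpc. Of these 4 were lower and 1 higher, Cdh1 at 0.04 FPKM or less throughout, with Krt8, Krt18 and Sftpb listed at 0. The 7 NK and ILC1 markers summed to 0.09 and 13.3 FPKM with Ang II against 30.1 and 31.0 FPKM with IL-33 alone, nearly all from Nkg7 and Gzma, with Ncr1, Klrb1c and Tbx21 listed at 0. The part of other cell types in the results that follow was not tested.

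With Ang II the factors lay on both sides of their IL-33 levels. Zfp36, Hnrnpd and Rc3h1 were higher in both Ang II libraries than in either IL-33 library. Zfp36l2, Elavl1, Rc3h2 and Zc3h12a were lower, and Zfp36l1, Zc3h12d and Khsrp overlapped between groups. Among the 18255 gene models above 0 in any library, 17.1% were higher and 24.4% lower by the same rule, so 3 and 4 of 10 are near that background. Of the 5 members tested, 2 were higher and 2 lower, beside 24.4% and 33.5% of the 9215 tested genes. None of the 5 passed an adjusted p of 0.05 or an unadjusted p of 0.05 in limma, and neither did any of the 9215 genes pass the adjusted threshold (smallest adjusted p = 0.174). At an unadjusted p under 0.05, 2.79% of tested genes were higher and 10.8% lower. With both IL-33 libraries as replicates Zfp36l2 had an unadjusted p of 0.024 in limma (adjusted p = 0.108). In that setting 984 of the 9215 genes were higher and 1598 lower at an unadjusted p under 0.05. The main fit, with the IL-33 mean, had 1 residual degree of freedom, with the spread taken from the Ang II libraries. In bulk RNA, fewer cells expressing a gene and less RNA per cell cannot be told apart.

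**Figure D1:**
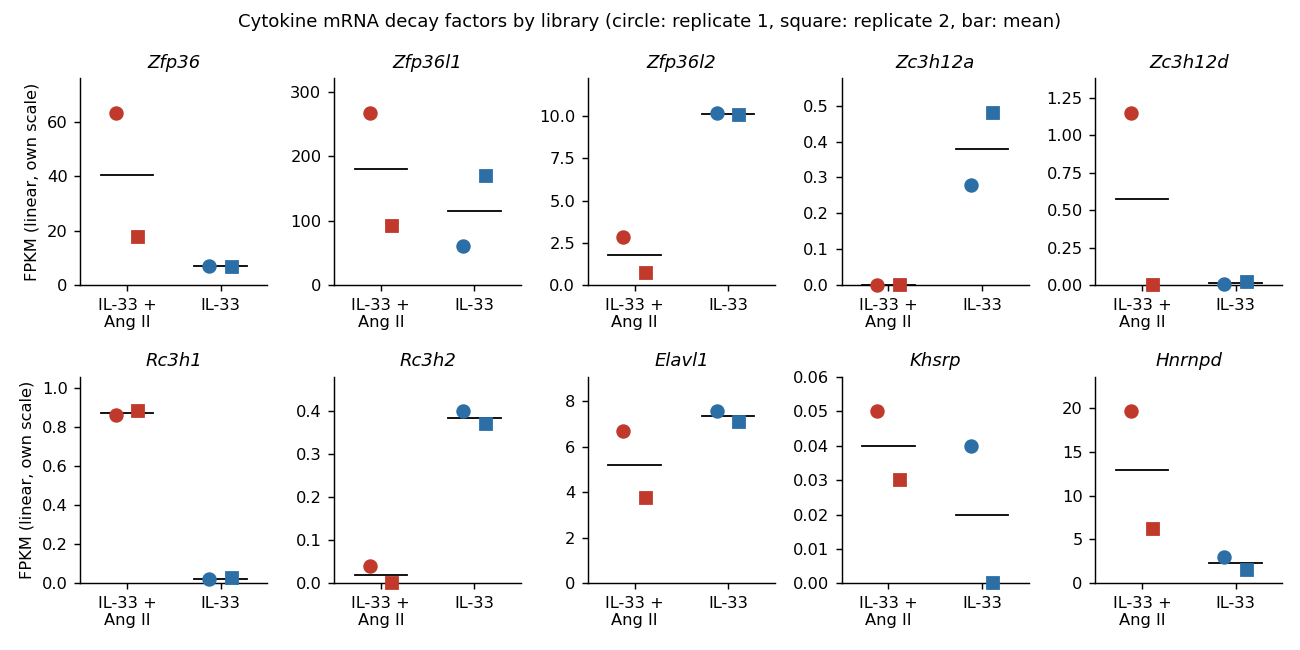
FPKM of each of the 10 decay factors (vertical axis, linear, with its own scale per gene) in the IL-33 plus Ang II libraries (red) and the IL-33 libraries (blue). Circles are replicate 1, squares replicate 2 and bars the mean of the pair; Zfp36, Hnrnpd and Rc3h1 lie higher with Ang II, Zfp36l2, Elavl1, Rc3h2 and Zc3h12a lower, and the IL-33 values of Zfp36l1 are far apart.

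Zfp36 encodes tristetraprolin, the founding member of its family, whose gene is itself induced by many stimuli and whose protein destabilises Tnf and Csf2 mRNA. It lies on chromosome 7 of mm10 (28376784 to 28380253, minus strand). Its level was 63.2 and 17.5 FPKM with Ang II, against 6.86 and 6.78 FPKM with IL-33 alone. Both Ang II values were above the IL-33 values, but they lay 3.62-fold apart. The Ang II mean was 40.3 ± 32.4 FPKM (SD, n = 2), against an IL-33 mean of 6.82 FPKM, 5.91-fold higher. The difference in log2(FPKM + 1), a scale that shrinks folds at low levels, was 2.14 (SE 1.22, limma adjusted p = 0.775). The antisense gene Gm44710 overlaps 1274 bases of Zfp36 and was listed at 0 in every library. Marco, the 1 of 10 myeloid markers that was higher with Ang II, was likewise higher in Ang II replicate 1 than in replicate 2. Of the other myeloid markers 4 were lower with Ang II. Among them was Lyz2, at 1016 and 683 FPKM with Ang II against 1700 and 1668 FPKM with IL-33 alone. The part of myeloid cells in the Zfp36 values was not tested.

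Zfp36l2, whose product binds the same element and restrains proliferation of lymphocyte precursors, was lower with Ang II. It lies on chromosome 17 (84183931 to 84187947, minus strand). It stood at 2.85 and 0.71 FPKM with Ang II, against 10.2 and 10.0 FPKM with IL-33 alone. Both Ang II libraries were below both IL-33 libraries, again with a wide gap between the Ang II values, 4.01-fold. The log2 difference was -2.12 (SE 0.98, limma adjusted p = 0.708), and the IL-33 mean was 5.68 times the Ang II mean. An antisense gene model over 2192 bases of Zfp36l2 was listed at 0 throughout.

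Zfp36l1, the third paralogue and a repressor of cell cycle transcripts, was the most abundant of the 10 members in every library. It lies on chromosome 12 (80107754 to 80113013, minus strand). Its level was 267 and 92.1 FPKM with Ang II and 59.9 and 169 FPKM with IL-33 alone. The groups overlapped, and the log2 difference of 0.46 (SE 1.00, limma adjusted p = 0.855) was smaller than its error. The IL-33 libraries differed by 2.82-fold here, nearly as far as the Ang II libraries (2.90-fold), so their mean of 114 FPKM lies between distant values. The difference was -0.10 without IL-33 replicate 1 and -0.31 without Ang II replicate 1. The noncoding gene Gm26669 covers 4967 bases of Zfp36l1 on the opposite strand in GENCODE M21. Whether the counting used strand is not given in the sources used here, and the part of that overlap in the IL-33 gap was not tested.

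The ratio between paralogues within a library is a measure that no scaling of the libraries can change. It was chosen after its values were seen, and it is a description with no test. Per transcript length, Zfp36 stood at 22.2 and 24.6 times Zfp36l2 in the Ang II libraries and at 0.673 and 0.675 times Zfp36l2 in the IL-33 libraries. Ratios that involve Zfp36l1 were farther apart within a group. Zfp36l1 stood at 93.8 and 129.7 times Zfp36l2 with Ang II, against 5.88 and 16.8 times with IL-33 alone. Zfp36 stood at 0.236 and 0.190 times Zfp36l1 with Ang II, against 0.115 and 0.040 times with IL-33 alone. The groups did not overlap in any of these 3 ratios. For Zfp36 over Zfp36l2 that follows from the opposite sides of the genes given above. How often the ratios of other gene pairs fail to overlap was not counted. With 1 FPKM added to each level of Zfp36 and Zfp36l2 the log2 ratio was 4.06 and 3.43 with Ang II, against -0.51 and -0.50 with IL-33 alone. Zfp36l2 made up 0.854% and 0.644% of the FPKM summed over the 3 paralogues with Ang II, against 13.2% and 5.41% with IL-33 alone. Zfp36 made up 19.0% and 15.8% with Ang II, against 8.91% and 3.65% with IL-33 alone. Neither share overlapped between groups. Zfp36l1 held 80.2% and 83.5% with Ang II, between its IL-33 shares of 77.8% and 90.9%. The sum itself was 334 and 110 FPKM with Ang II and 76.95 and 186 FPKM with IL-33 alone, so the groups overlapped in the family's total.

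**Figure D2:**
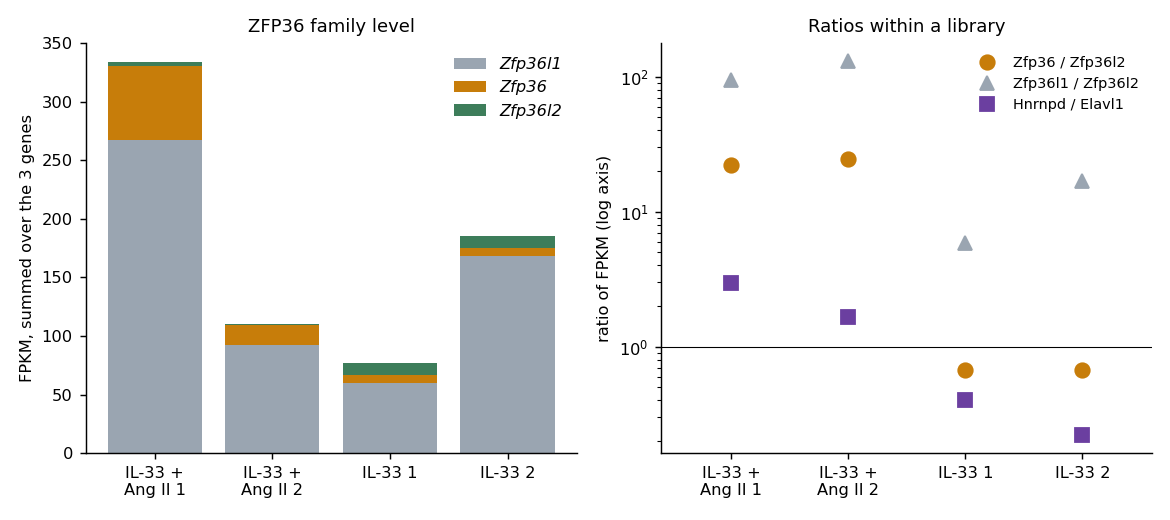
Left: FPKM of Zfp36l1, Zfp36 and Zfp36l2 stacked to the family sum in each of the 4 libraries. Right: ratios of FPKM within each library on a log axis, with a line at 1; Zfp36 over Zfp36l2 was 22.2 and 24.6 with Ang II and 0.673 and 0.675 with IL-33 alone, and Hnrnpd over Elavl1 also lay on opposite sides of 1. That the groups do not overlap in these named ratios follows from the opposite sides of their genes.

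The nuclease genes were barely detected. Zc3h12a, which encodes Regnase-1, was at a listed 0 in each Ang II library, against 0.28 and 0.48 FPKM with IL-33 alone. No fold is read against the listed 0. Zc3h12d, which encodes the related Regnase-4, stood at 1.15 and 0 FPKM with Ang II, against 0.01 and 0.02 FPKM with IL-33 alone. A single Ang II library thus carried nearly all of its signal. Both genes were under the mean of 1 FPKM and were not tested. Without a filter on low values, Zc3h12a had an adjusted p of 0.191 and Zc3h12d of 0.755 (limma over 18255 gene models). With both Ang II values listed at 0, the spread behind the Zc3h12a value came only from other genes.

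The Roquin genes, whose products are partly redundant in T cells, had opposite sides at low level. Rc3h1 (chromosome 1, 160906418 to 160974978, plus strand) stood at 0.86 and 0.88 FPKM with Ang II, against 0.02 and 0.03 FPKM with IL-33 alone. Its Ang II values differed by 1.02-fold, the closest agreement among the members above 0.1 FPKM in both Ang II libraries. Rc3h2 (chromosome 2, 37370069 to 37422903, minus strand) stood at 0.04 and 0 FPKM with Ang II, against 0.40 and 0.37 FPKM with IL-33 alone. Rc3h1 thus supplied 95.6% and 100% of the Roquin FPKM with Ang II, against 4.76% and 7.50% with IL-33 alone. The Roquin sum was 0.90 and 0.88 FPKM with Ang II, against 0.42 and 0.40 FPKM with IL-33 alone. Neither reached the mean of 1 FPKM. Without that filter the log2 difference was 0.87 for Rc3h1 (limma adjusted p = 0.300) and -0.44 for Rc3h2 (limma adjusted p = 0.191). With a pseudocount of 0.1 FPKM these differences were 2.96 and -2.04. In GENCODE M21, 3 unconfirmed gene models overlap Rc3h1 and the small RNA gene Snord90 overlaps Rc3h2, and each was listed at 0.

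Among the factors that bind AU-rich mRNA without a CCCH zinc finger, Hnrnpd and Elavl1 were tested. Hnrnpd encodes AUF1 and lies on chromosome 5 (99955935 to 99978938, minus strand). It stood at 19.6 and 6.17 FPKM with Ang II and at 3.06 and 1.58 FPKM with IL-33 alone. Both Ang II values were above the IL-33 values, the mean 5.55-fold, with 3.18-fold between the Ang II libraries. The log2 difference was 1.87 (SE 1.15, limma adjusted p = 0.775). The antisense gene Gm17092, over 1173 bases of Hnrnpd, was listed at 6.57 FPKM in Ang II replicate 2 and at 0 in the other libraries.

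Elavl1, the gene of the stabilising protein HuR, lies on chromosome 8 (4285382 to 4325413, minus strand). It stood at 6.67 and 3.73 FPKM with Ang II, against 7.55 and 7.09 FPKM with IL-33 alone. The groups did not overlap, but Ang II replicate 1 lay close to the IL-33 libraries. The log2 difference was -0.47 (SE 0.78, limma adjusted p = 0.814), smaller than its error. Within a library, Hnrnpd stood at 2.94 and 1.65 times Elavl1 with Ang II and at 0.405 and 0.223 times Elavl1 with IL-33 alone. That this ratio did not overlap between groups follows from the opposite sides of its genes. Khsrp, the gene of KSRP, was listed at 0.05 and 0.03 FPKM with Ang II and at 0.04 and 0 FPKM with IL-33 alone. KSRP is made in most cells, so a value listed at 0 here may also be a failed estimate.

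**Figure D3:**
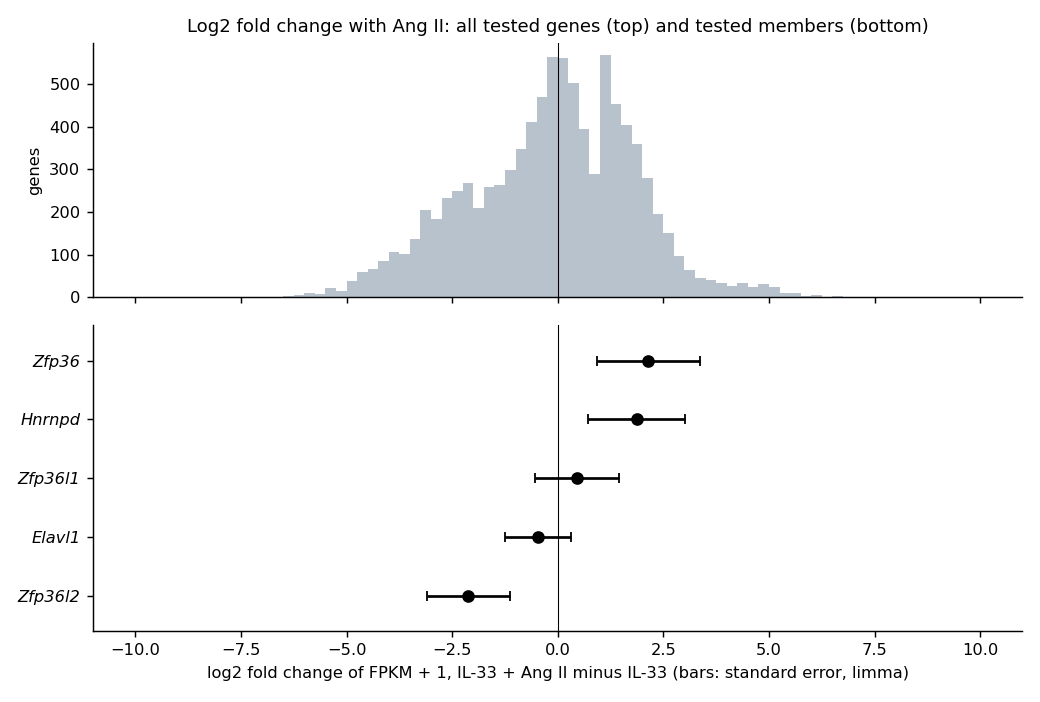
Top: number of genes (vertical axis) by log2 fold change of FPKM + 1, IL-33 plus Ang II minus IL-33, over the 9215 tested genes. Bottom: the same for the 5 tested members, with limma standard errors as bars; Zfp36 (2.14), Hnrnpd (1.87) and Zfp36l2 (-2.12) lie within the body of the distribution and none passed the adjusted threshold.

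Zfp36l1 led the order of levels in both groups. With Ang II the order of the means was Zfp36l1 (180 FPKM), Zfp36 (40.3), Hnrnpd (12.9), Elavl1 (5.20), Zfp36l2 (1.78), Rc3h1 (0.87), Zc3h12d (0.575), Khsrp (0.04), Rc3h2 (0.02) and Zc3h12a (listed at 0). With IL-33 alone it was Zfp36l1 (114 FPKM), Zfp36l2 (10.1), Elavl1 (7.32), Zfp36 (6.82), Hnrnpd (2.32), Rc3h2 (0.385), Zc3h12a (0.38), Rc3h1 (0.025), Khsrp (0.02) and Zc3h12d (0.015). In the Ang II libraries, Zfp36 and Hnrnpd overlapped in their ranges, as did Hnrnpd and Elavl1, Rc3h1 lay within the range of Zfp36l2, and Khsrp overlapped with Rc3h2. Zc3h12d, at 1.15 and 0 FPKM, overlapped with Zfp36l2 and spanned Rc3h1, Khsrp, Rc3h2 and the listed 0 of Zc3h12a. In the IL-33 libraries Rc3h2 lay within the range of Zc3h12a, and Rc3h1, Khsrp and Zc3h12d overlapped.

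Windows around the annotated start are shown for Zfp36 and Hnrnpd, the tested members that were higher with Ang II in both libraries. Rc3h1, also higher but not tested, held no CArG box. Motifs were searched on both strands of the RefSeq promoters (GRCm38.p6), 250 bases before to 50 after the start, for 9 members, Zfp36l2 having no entry. The motifs were CRE (TGACGTCA), AP-1 (TGANTCA), EGR (GCGNGGGCG), STAT (TTCNNNGAA), the TATA box (TATA followed by AA), the kappaB motif and the CArG box bound by serum response factor. The CArG box occurred in 1.63% of 32851 promoters, among them those of Zfp36 and Hnrnpd. Counted from the annotated start, it lay at -58 to -49 in Zfp36 and at 1 to 10, not upstream, in Hnrnpd. The EGR motif (5.55% of promoters) and the STAT motif (8.30%) occurred in that of Zfp36. Zfp36l1 held an AP-1 motif (7.81% of promoters) and a TATA box (13.6%), Rc3h1 held an AP-1 motif, and 0 promoters of the 9 held CRE or kappaB. No match overlapped another in these 9 promoters. The motif set was chosen with the values known, and a match says nothing on binding. Capitals mark the motif, and all 3 windows are on the minus strand.
Zfp36, CArG box, chr7:28379267-28379296: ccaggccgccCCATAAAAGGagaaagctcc
Zfp36, EGR motif, chr7:28379315-28379343: gagctacgccGCGGGGGCGcgtcccggaa
Hnrnpd, CArG box, chr5:99978919-99978948: cttccgtcggCCATTTTAGGtggtccgcgg

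The other genes of the pathway were read from lists, by the same rule of both Ang II libraries lying outside both IL-33 values. Over all 9215 tested genes, 24.4% were higher and 33.5% lower by this rule, and the median log2 difference was -0.0037. Each list's counts are to be read beside these shares, and its median moves with the settings by the ranges given under the processing alternatives. Of 14 measured genes of other RNA-binding proteins (21 listed), 7 were higher and 4 lower, with a median of 0.72 (0.34 without a filter on low values). Arid5a, which encodes a protein that shields Il6 mRNA from Regnase-1, stood at 15.6 and 10.6 FPKM with Ang II, against 0.03 FPKM in both IL-33 libraries (log2 difference 3.75, SE 0.73, limma adjusted p = 0.344). Hnrnpdl, a close relative of Hnrnpd, stood at 6.86 and 18.6 FPKM with Ang II, against 0.31 and 0.25 FPKM with IL-33 alone. The most abundant were Hnrnpab (162 and 140 FPKM with Ang II, 185 and 193 FPKM with IL-33 alone) and Ybx1 (63.6 and 85.9 FPKM with Ang II against 58.4 and 67.0 FPKM with IL-33 alone), both general mRNA-binding proteins. The paralogues Zc3h12b and Zc3h12c were at 0.02 FPKM or less with Ang II. With IL-33 alone Zc3h12b stood at 2.35 and 2.33 FPKM and Zc3h12c at 2.33 and 4.62 FPKM.

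The deadenylases are what the ZFP36 and Roquin proteins recruit. Of 18 measured genes (20 listed), 5 were higher and 6 lower, with a median of -0.22 (0.35 without Ang II replicate 1). Those named by size were anti-proliferative adaptors of CCR4-NOT. Tob2 stood at 16.7 and 29.1 FPKM with Ang II, against 0.19 and 0.13 FPKM with IL-33 alone (log2 difference 4.31, SE 0.77). Btg3 stood at 18.1 and 20.9 FPKM with Ang II, against 0.05 and 0.03 FPKM with IL-33 alone (log2 difference 4.30, SE 0.63, limma adjusted p = 0.241). Btg1 was the most abundant, at 285 and 293 FPKM with Ang II and 190 FPKM in both IL-33 libraries, and Btg2 overlapped (43.5 and 131 FPKM with Ang II against 99.9 and 97.2 FPKM with IL-33 alone). Cnot1, the scaffold of the complex, stood at 0.26 and 0.57 FPKM with Ang II, against 6.35 and 5.28 FPKM with IL-33 alone, a gene added here for its role.

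Decapping and the exosome destroy the deadenylated mRNA from either end. Of 14 measured decapping genes (18 of 19 listed found), 3 were higher and 8 lower, beside 24.4% and 33.5% of all tested genes, with a median of -0.64 (-1.37 without Ang II replicate 2). Edc4, the scaffold of the decapping enzyme, stood at 0.01 and 0 FPKM with Ang II, against 20.3 and 19.7 FPKM with IL-33 alone (log2 difference -4.39, SE 0.44, limma adjusted p = 0.174). Dcps, which clears the leftover cap, was at a listed 0 in each Ang II library, against 18.6 and 19.7 FPKM with IL-33 alone. Pnrc1, a cofactor of the decapping enzyme, stood at 215 and 119 FPKM with Ang II, against 13.1 and 13.4 FPKM with IL-33 alone (log2 difference 3.50, SE 0.60, limma adjusted p = 0.298), and Lsm4 at 137 and 118 FPKM with Ang II against 180 and 174 FPKM with IL-33 alone. The exonuclease gene Xrn1 was at 0.01 FPKM in all 4 libraries, although most cells use it. Of 15 measured exosome genes (17 listed), 4 were higher and 7 lower, with a median of -0.89 (-0.15 for those averaging 5 FPKM or more). The ring subunit gene Exosc6 was at a listed 0 in each Ang II library, against 41.6 and 42.1 FPKM with IL-33 alone, and Wdr61, a part of the Ski complex, was higher (24.9 and 29.6 FPKM with Ang II, 0.04 and 0.03 FPKM with IL-33 alone). Exosc3 stood at 38.2 and 185 FPKM with Ang II against 219 and 217 FPKM with IL-33 alone, and Exosc8 at 40.1 and 40.4 FPKM with Ang II against 29.3 and 28.6 FPKM with IL-33 alone. In these lists 0 genes passed the adjusted threshold.

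The last list was drawn up for genes whose products act on the decay factors. Examples are the p38 pathway kinases that inactivate ZFP36 and the MALT1 protease complex that cuts Regnase-1 and Roquin. Such an action is not shown here for each gene of the list, Usp18 among them. Of 18 measured genes (21 listed), 8 were higher and 7 lower, with a median of -0.013. Bcl10, the adaptor of MALT1, stood at 24.3 and 6.86 FPKM with Ang II, against 0.05 and 0 FPKM with IL-33 alone, while Malt1 itself was at 0.01 FPKM or less in every library. Fbxw11, a ubiquitin ligase subunit, stood at 25.3 and 0.12 FPKM with Ang II against 0.03 and 0.10 FPKM with IL-33 alone, almost all from a single library. Usp18, an interferon-induced protease, was the most abundant (469 and 672 FPKM with Ang II, 195 FPKM in both IL-33 libraries; log2 difference 1.52, SE 0.37, limma adjusted p = 0.410). Ywhaq, a member of the 14-3-3 proteins that hold phosphorylated ZFP36, stood at 151 and 114 FPKM with Ang II against 239 FPKM in both IL-33 libraries. Mapk14, the gene of p38 alpha, stood at 0.10 and 0.12 FPKM with Ang II, against 13.1 and 6.43 FPKM with IL-33 alone, and was named here for its role.

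**Figure D4:**
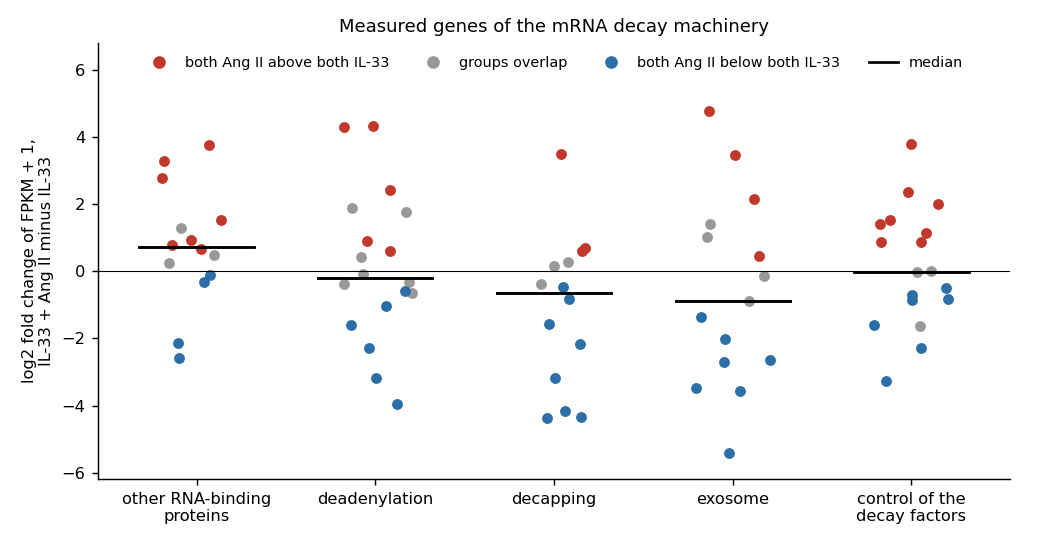
Log2 fold change of FPKM + 1 (vertical axis, IL-33 plus Ang II minus IL-33) for each measured gene of 5 pathway lists (horizontal axis, points spread sideways for legibility). Red points are higher and blue points lower in both Ang II libraries than in both IL-33 libraries, grey points overlap and bars are list medians, such as 0.72 for other RNA-binding proteins and -0.89 for the exosome, whose order changes with the settings; each list holds genes in both directions.

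Transcripts known as targets were read last, by their textbook assignment and not from these data. Of 13 measured ZFP36 family targets (19 listed), 1 was higher and 7 lower, beside 24.4% and 33.5% of all tested genes, with a median log2 difference of -1.89. For Ang II replicate 1 alone the median was -2.42, and for replicate 2 alone -0.30. Csf2, which encodes GM-CSF, had 1819 and 731 FPKM with Ang II, on either side of its IL-33 values of 913 and 891 FPKM. Tnf was listed at 0 in Ang II replicate 1 and stood at 27.7 FPKM in replicate 2, against 60.8 and 63.9 FPKM with IL-33 alone. Il13 stood at 16.3 and 0.53 FPKM with Ang II against 70.1 and 73.7 FPKM with IL-33 alone, so here the lower value was in replicate 2. Ccl3, a chemokine gene, stood at 41.9 and 653 FPKM with Ang II against 623 and 613 FPKM with IL-33 alone, and Myc at 22.8 and 34.5 FPKM with Ang II against 0.07 and 0 FPKM with IL-33 alone. Of the targets whose nonamers are shown, Tnf and Il13 were lower and Csf2 overlapped between groups. Il5, a type 2 cytokine gene of the list, was listed at 0 throughout. As for Khsrp, a value listed at 0 may be a failed estimate, also for genes such as Dcps, Exosc6 and Tnfrsf4 with Ang II.

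Of 10 measured targets of Regnase-1 or Roquin (14 listed), 2 were higher and 4 lower, with a median of -1.23, or -2.28 for Ang II replicate 1 alone and 0.079 for replicate 2 alone. Nfkbiz, which encodes an inducible NF-kB cofactor, stood at 52.8 and 91.5 FPKM with Ang II, against 0.08 FPKM in both IL-33 libraries (log2 difference 6.03, SE 0.66, limma adjusted p = 0.174). Rel, an NF-kB subunit gene, was the other higher target, at 27.9 and 34.0 FPKM with Ang II against 9.04 and 8.31 FPKM with IL-33 alone. Tnfrsf4, the gene of the costimulatory receptor OX40, was at a listed 0 in each Ang II library, against 50.2 and 52.2 FPKM with IL-33 alone. Icos, a well known Roquin target, overlapped between groups (264 and 383 FPKM with Ang II against 357 and 348 FPKM with IL-33 alone), as did Nfkbid (59.7 and 194 FPKM with Ang II against 183 and 194 FPKM with IL-33 alone). The lists share Il6, Il2, Il1b, Tnf and Ptgs2.

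**Figure D5:**
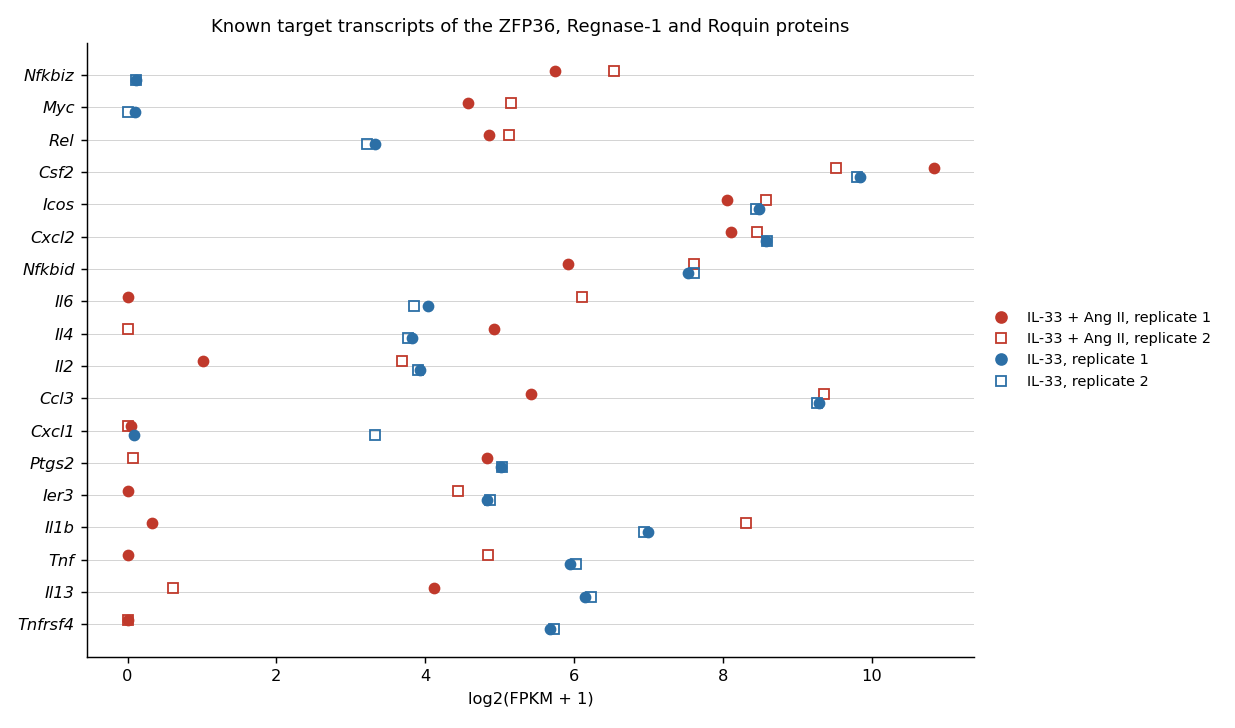
Level of each measured target transcript as log2(FPKM + 1) (horizontal axis), in the IL-33 plus Ang II libraries (red) and the IL-33 libraries (blue), with filled circles for replicate 1 and open squares for replicate 2. Genes run from the lowest fold change (Tnfrsf4) at the bottom to the highest (Nfkbiz) at the top. For Il6, Il1b, Ccl3, Il4, Csf2 and Icos the Ang II values lie on both sides of the IL-33 values.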

How the data were processed

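Per the file headers, the deposited values are FPKM per gene and library, given with 2 decimals. The submitters' processing notes name mm10, HISAT, StringTie and edgeR, without versions or roles, and the annotation is not given in the sources used here. Per the labels' protocols, cDNA from 500 cells was amplified by PCR, fragmented and sequenced in pairs. No molecular identifiers are named, and amplification from few cells can widen the spread between libraries. FPKM are not counts, so no count model was used.

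Genes averaging 1 FPKM or more over the Ang II libraries and the IL-33 mean were fitted on log2(FPKM + 1) with limma 3.58.1 in R 4.3.3 (lmFit, eBayes with trend), two-sided, with Benjamini-Hochberg adjustment over all 9215 genes and a threshold of 0.05. IL-33 entered as 1 sample and Ang II as 2. Since separate mice are not stated, p-values cover only library-to-library spread, possibly technical. The fit and the depth estimate were tested on simulated data. There the fit recovered the simulated fold changes but not the adjusted threshold, so a gene that misses that threshold here is not shown to be unchanged. Identifiers matched GENCODE M21 (GRCm38, the assembly of mm10) for 55141 of 55401 gene models.

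The members and lists were chosen with earlier results of these data known. Named from each list were the 2 largest differences among genes outside the IL-33 values that averaged 5 FPKM or more, and the 2 most abundant genes, while genes named for their role are additions made after values were seen. Alternatives were other pseudocounts, filters and scalings, each library left out, and both IL-33 libraries as replicates with and without a replicate block.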

Additional observations from a re-analysis of the deposited data

How the results depend on the processing

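When the IL-33 libraries entered as 2 replicates, limma called 457 genes higher and 1090 lower, against 0 and 0 with them counted as 1 sample, and 0 members among them. Zfp36l2 then had the smallest adjusted p of the members, 0.108 (unadjusted 0.024). The correlation of same-numbered deviations was -0.019. The IL-33 deviations lay near the estimated counting noise, so this cannot show whether the replicate numbers pair the samples. With a replicate block the calls were 0 and 0. The adjusted limma p-values were then 0.214 for Hnrnpd (unadjusted 0.035), 0.221 for Zfp36l2 (unadjusted 0.038) and 0.307 for Zfp36 (unadjusted 0.074). Thus no tested member passed an unadjusted 0.05 with the IL-33 mean, but 1 did with both IL-33 libraries as replicates and 2 with the block. Among all 9215 genes, 984 higher and 1598 lower passed it with both as replicates, and 618 higher and 1217 lower with the block. The member counts, out of 5 tested, are to be read beside these. Without a filter on low values, the unadjusted p in limma was 0.0033 for Zc3h12a, 0.017 for Rc3h2 and 0.041 for Rc3h1. The adjusted p-values were 0.191, 0.191 and 0.300. In that fit 352 of 18255 gene models were higher and 2341 lower at an unadjusted p under 0.05. The spread behind the Zc3h12a value came only from other genes, since both its Ang II values are listed at 0. Leaving out each library in turn gave 3 to 6 members higher and 4 to 5 lower, 6 being the count without Ang II replicate 2, and a log2 difference of Zfp36l1 between -0.31 and 1.38. Leaving out an Ang II library left no residual degree of freedom, so those values have no test. With a single Ang II library left, a gene overlaps only where that value lies within the narrow IL-33 range. The share of all genes higher or lower with a library left out was not counted, so these member counts have no background. Of 130 alternative values of the members, 105 kept direction and side of the threshold or moved by less than the spread, 23 moved and 2 turned sign. The 23 were all of members averaging under 1 FPKM in the test, and the 2 were those of Zfp36l1. Every untested alternative of Zc3h12a was counted as moved, since its Ang II libraries are both listed at 0 and give no spread. That includes an unchanged -0.46 at a mean of at least 5 FPKM and without either Ang II library. Near 0, Khsrp was also at -0.000067 without IL-33 replicate 2, counted as moved. Zc3h12d was at -0.021 without Ang II replicate 1, counted as within the spread although its sign turned. Across the alternatives the log2 difference ranged from 1.24 to 3.04 for Zfp36, from 1.11 to 2.63 for Hnrnpd, from -2.72 to -1.17 for Zfp36l2 and from -0.81 to -0.12 for Elavl1. The median of all genes was 0.072 with equal FPKM sums and -0.070 with median ratio scaling. List medians ranged from 0.34 (no filter) to 0.88 for other RNA-binding proteins, from -0.58 (without Ang II replicate 2) to 0.35 (without Ang II replicate 1) for deadenylation and from -1.37 (without Ang II replicate 2) to -0.42 for decapping. They ranged from -1.37 (pseudocount 0.1 FPKM) to -0.15 (mean of 5 FPKM or more) for the exosome, from -0.28 to 0.057 for genes acting on the factors, from -2.92 to -0.30 for ZFP36 targets and from -2.28 to 0.079 for Regnase-1 or Roquin targets. At a mean of 5 FPKM or more the exosome median was -0.15 and the decapping median -0.82. At this depth, which is unknown, values under 1 FPKM limit what can be said of the Regnase and Roquin genes.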

Other observations

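The nonamer UUAUUUAUU was also read across all tested genes with an annotated 3′ UTR. Of 446 genes with at least 1 match, 25.6% lay above and 35.9% below both IL-33 values in each Ang II library, against 26.1% and 35.6% of the 6646 genes with no match. The median log2 difference was -0.094 with a match and -0.12 without. Genes with a match were less abundant, at a median of 6.22 FPKM over the libraries against 9.35 FPKM for genes without one, and 0 of either kind passed the adjusted threshold in limma. Of 33 genes with 3 or more matches, 8 were higher and 14 lower, with a median of -0.31. Chosen after their values were seen, Pim1, a kinase gene with 3 matches, stood at 31.98 and 19.7 FPKM with Ang II against 0.12 and 0.14 FPKM with IL-33 alone. Ppp1r15a, a stress-induced phosphatase subunit gene with 4, stood at 256 and 212 FPKM with Ang II against 128 and 130 FPKM with IL-33 alone. Il10ra, a cytokine receptor gene with 3, stood at 7.32 and 17.7 FPKM with Ang II against 44.3 and 45.8 FPKM with IL-33 alone.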
